A study of Mus musculus with 2 samples.

Results

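In the chromatin of colonic macrophages, 1502 candidate enhancers lying between genes but close to one were called in WT mice and not in mice that lack Tle4 in myeloid cells. They are summits, the highest points of regions enriched for acetylation of lysine 27 on histone H3 (H3K27ac), mapped by CUT&Tag, which cuts and tags DNA only where an antibody against the mark has brought a transposase. They were chosen by position and by the measured lists: a WT summit on chromosomes 1 to 19 or X, outside every protein-coding gene, over 1 kb and at most 50 kb from the nearest gene end, with no Tle4cKO summit within 500 bp. A gene end here is either outer end of a gene in the RefSeq annotation. The 1502 members are 14.4% of the 10460 WT summits on these chromosomes. Each is named after the gene with the nearest end, which need not be the gene it acts on.

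The cells were Siglec-F-negative, Ly6C-low, CD64-positive macrophages of the colon from untreated male C57BL/6 mice with an age label of 11.1-week. WT mice carried Lyz2-Cre alone and Tle4cKO mice were Tle4f/f Lyz2-Cre, so both groups carried the recombinase. Lyz2 drives Cre in myeloid cells in general, not in gut macrophages alone. Cells of 4 mice were pooled per genotype, which leaves 1 library for each genotype, no replicate and no test between the genotypes.

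H3K27ac marks active promoters and active enhancers, and enhancers can lie far from the genes they act on. Tle4 belongs to the Groucho family of corepressors, which do not bind DNA themselves but are brought to enhancers and promoters by partners such as RUNX, HES and TCF/LEF proteins and help remove histone acetylation there. Resident colonic macrophages take up bacteria and dead cells, present antigen and depend on signals such as TGF-beta and CSF1 for their identity.

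The scale of the whole comparison stands beside every count below. The Tle4cKO list held 2341 summits on the same chromosomes, and 82.1% of all 10460 WT summits had no Tle4cKO summit within 500 bp. Read depth is unknown for both libraries, and a summit that was not called can still carry signal. In pooled cells, fewer cells with the mark and less of the mark per cell cannot be told apart. Of 15 macrophage marker genes, 9 had a WT summit inside them or up to 10 kb away and 0 had a Tle4cKO summit there, so the Tle4cKO list offers no check of the labelled cell type at these genes. Over all protein-coding genes these shares were 39.6% in WT and 11.8% in Tle4cKO. For other cell types, WT summits lay within 10 kb of 1 of 10 epithelial, 3 of 8 B and plasma cell, 1 of 8 neutrophil, 2 of 9 T cell, 1 of 5 eosinophil, 0 of 6 mast cell, 1 of 9 fibroblast and muscle, 3 of 5 endothelial, 1 of 6 glial and neuronal and 8 of 10 dendritic cell genes. Tle4cKO summits lay there for 2 of the dendritic cell genes, 1 of the B and plasma cell genes and 1 of the endothelial genes, and for 0 of the others. Tle1 to Tle7 and Lyz2 were nearest to 0 members, so these summits do not check the genotype.

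A few members can be shown with their sequence, because they lie in the 300-base window (250 bases before to 50 after) of a non-coding transcript's start in the RefSeq tables of GRCm38.p6. These were 14 of the 1502 members (0.932%, exact Clopper-Pearson 95% interval 0.510 to 1.56%), and no sequence was read for the others. The first sequence below holds the highest-scoring member of all, next to Chd2, and the second the member next to Mef2d, which ranked 14th. The third holds the next in score, and the last pair show a window rich in GC boxes and one with AP-1 and interferon-type letters. Capitals mark the matches to 10 short motifs, searched on both strands: AP-1 (TGANTCA), an ETS purine box (GAGGAAG), C/EBP (TTGCNNAA), an interferon-type repeat (GAAANNGAA), an NF-kB type site (GGANTTTCC), RUNX (TGTGGT), TCF/LEF (CTTTGAT), a CTCF core (CNAGGGGGC), a MiT-family E-box (TCACGTG) and the GC box (GGGCGG). Matches that touch are printed as 1 run.
Chaserr (chr7:73558346-73558645, minus strand): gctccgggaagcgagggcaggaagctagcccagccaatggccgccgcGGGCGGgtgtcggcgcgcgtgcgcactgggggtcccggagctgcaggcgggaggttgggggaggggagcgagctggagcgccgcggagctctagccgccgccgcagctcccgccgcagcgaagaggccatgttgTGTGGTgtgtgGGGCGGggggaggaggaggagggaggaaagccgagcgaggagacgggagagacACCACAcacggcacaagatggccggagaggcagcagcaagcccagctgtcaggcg
1700113A16Rik (chr3:88177736-88178035, minus strand): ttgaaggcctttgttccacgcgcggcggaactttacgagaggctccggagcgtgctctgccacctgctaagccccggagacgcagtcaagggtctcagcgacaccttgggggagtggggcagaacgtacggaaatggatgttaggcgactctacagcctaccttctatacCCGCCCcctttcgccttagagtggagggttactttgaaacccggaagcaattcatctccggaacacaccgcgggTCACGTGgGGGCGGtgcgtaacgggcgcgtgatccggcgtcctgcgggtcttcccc
Gm29638 (chr7:12949735-12950034, plus strand): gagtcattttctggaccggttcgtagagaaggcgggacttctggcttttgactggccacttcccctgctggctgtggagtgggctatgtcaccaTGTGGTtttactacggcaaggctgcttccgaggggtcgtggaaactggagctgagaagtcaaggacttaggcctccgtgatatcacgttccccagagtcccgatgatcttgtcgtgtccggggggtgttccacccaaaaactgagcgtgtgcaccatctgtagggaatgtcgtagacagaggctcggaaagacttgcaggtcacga
Crnde (chr8:92356071-92356370, minus strand): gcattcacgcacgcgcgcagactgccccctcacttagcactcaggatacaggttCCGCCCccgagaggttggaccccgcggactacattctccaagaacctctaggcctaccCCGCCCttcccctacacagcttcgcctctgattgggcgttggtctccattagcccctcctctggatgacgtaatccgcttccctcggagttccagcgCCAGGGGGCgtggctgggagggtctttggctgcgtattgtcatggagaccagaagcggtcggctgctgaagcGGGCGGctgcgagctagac
Gm12216 (chr11:53859207-53859506, minus strand): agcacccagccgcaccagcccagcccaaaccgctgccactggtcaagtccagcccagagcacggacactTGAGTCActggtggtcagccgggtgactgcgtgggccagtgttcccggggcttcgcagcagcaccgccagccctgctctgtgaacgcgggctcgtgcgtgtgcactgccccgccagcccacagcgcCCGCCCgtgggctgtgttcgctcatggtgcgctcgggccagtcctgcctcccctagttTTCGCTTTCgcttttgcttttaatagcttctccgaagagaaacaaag

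Chaserr, a long non-coding RNA known to restrain its neighbour Chd2, had its WT summit at chr7:73558622 with a score of 13.0. The score is the authors' value per peak, read as −log10 of a p- or q-value, and serves here only to rank summits within a list. Tle4cKO scores printed beside WT scores below show that a summit was called and do not measure a difference. The Chaserr window held RUNX letters in 2 places and the GC box in 2. The window of 1700113A16Rik held an E-box and the GC box in 2 places, with the summit at chr3:88177892 and a score of 10.0. Gm29638, whose nearest coding gene is Zfp324, had a score of 6.03 and 1 RUNX match. Crnde, a non-coding RNA upstream of the homeobox gene Irx5, had a score of 3.81, and its window held the GC box in 3 places and a CTCF core in 1. Gm12216, near the carnitine transporter gene Slc22a5, had a score of 3.37. The GC box was in 7 of the 14 windows with a member (50%, 23.0 to 77.0%), against 16.0% of all 11806 non-coding start windows and 46.7% of 21045 windows at coding starts. RUNX letters were in 2 of the 14, and NF-kB type and TCF/LEF letters were in 0. A match describes the letters only and shows no binding.

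For comparison, the 250 bases before the start of 2 nearby genes are shown because they carry a promoter summit beside intergenic members. Ifngr1, the ligand-binding chain of the interferon-gamma receptor, had a promoter summit called in both libraries and 3 upstream members called in WT alone. Map3k7, a kinase of Toll-like receptor and TGF-beta signalling, had a promoter summit in WT alone and 1 member.
Ifngr1 (chr10:19591699-19591948, plus strand): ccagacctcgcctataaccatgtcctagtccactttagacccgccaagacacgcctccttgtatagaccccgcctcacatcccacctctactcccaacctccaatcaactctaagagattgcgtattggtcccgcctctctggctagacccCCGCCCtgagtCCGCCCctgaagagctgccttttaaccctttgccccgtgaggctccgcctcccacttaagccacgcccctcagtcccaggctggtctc
Map3k7 (chr4:31963857-31964106, plus strand): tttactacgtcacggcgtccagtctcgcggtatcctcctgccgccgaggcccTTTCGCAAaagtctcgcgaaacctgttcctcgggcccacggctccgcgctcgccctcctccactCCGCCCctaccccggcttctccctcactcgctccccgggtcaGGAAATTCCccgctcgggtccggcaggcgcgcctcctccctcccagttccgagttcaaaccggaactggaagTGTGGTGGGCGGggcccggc

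The Ifngr1 stretch held the GC box in 2 places. The Map3k7 stretch held the GC box in 2 places and NF-kB type, C/EBP and RUNX letters in 1 place each. Over all nearest genes, the intervals for the GC box, RUNX and C/EBP letters in the start windows excluded the share of all coding starts. AP-1 letters were in 7.01% of 1241 start windows of nearest genes and in 7.04% of all coding start windows, and ETS letters were in 14.7% and 13.3%. RUNX letters were in 12.7% (10.9 to 14.6%) against 14.7%, C/EBP letters in 8.38% (6.90 to 10.06%) against 10.26% and NF-kB type letters in 1.85% (1.18 to 2.77%) against 1.29%. The GC box was in 53.7% (50.9 to 56.5%) against 46.7%, with a median GC content of 59% and 56.7%.

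Members also lay beside microRNA genes. Mir22, whose product is abundant in many cell types, had 2 members at 3397 and 2524 bp from its hairpin, with scores of 3.85 and 3.97. The nearest coding gene to both was Wdr81, and the nearest Tle4cKO summit was 281286 bp from the first of them. Mir2861 lay 2355 bp from a member with a score of 11.03 near Cdk9. The mature sequences follow, with the seed (bases 2 to 8) in capitals.
miR-22-3p: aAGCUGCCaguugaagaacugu
miR-22-5p: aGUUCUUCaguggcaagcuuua
miR-2861: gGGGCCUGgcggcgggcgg

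Members were mostly moderate summits within the WT list. Their median score was 4.05, with quartiles of 3.17 and 5.28 and a range from 1.35 to 13.0. The 251 WT summits of the same location that did have a Tle4cKO partner had a median of 6.00 and a highest score of 294. A score of 10 or more was found for 14 members (0.932%) and for 47 summits with a partner (18.7%). The best-placed member ranked 262nd in the WT list, 35 members were among the 1000 highest WT scores, and 60.1% of members lay below the WT median. Of the near-gene intergenic WT summits with a score of 10 or more, most were called in both libraries. Among the highest were summits near Rpusd4, Mrgprd and Tmem196, with 294, 199 and 127. Those at Mrgprd and Tmem196 had no coding gene on their other side. No filter for artefact-prone regions was applied here, and whether such summits are enhancers was not tested.

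Of the 1753 WT summits in this location, 85.7% (84.0 to 87.3%) were called in WT alone. The share in gene bodies was 85.6% (84.5 to 86.8%), over 50 kb from genes it was 83.3% (80.4 to 85.9%) and at gene ends it was 77.5% (76.2 to 78.7%). The share near genes is thus close to the 82.1% of all WT summits, and the rule used this contrast, so it is given as a description. The share was lower at high scores than at low scores in every location. For near-gene intergenic summits it was 94.2% below a score of 3, 88.5% from 4 to 5, 75% from 6 to 8 and 23.0% (14 of 61) at 10 or more. At gene ends it was 34.4% (124 of 360) at 10 or more. From 5 to 6 it was 86.9% (82.4 to 90.6%) between genes and 85.4% (81.8 to 88.5%) in gene bodies. At gene ends it was lower in this bin, 79.3% (76.0 to 82.3%). In the top bin the gene-end value was higher, but the intervals overlap. They were 29.5 to 39.6% at gene ends, 13.2 to 35.5% between genes and 16.3 to 31.8% in gene bodies.

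**Figure D1:**
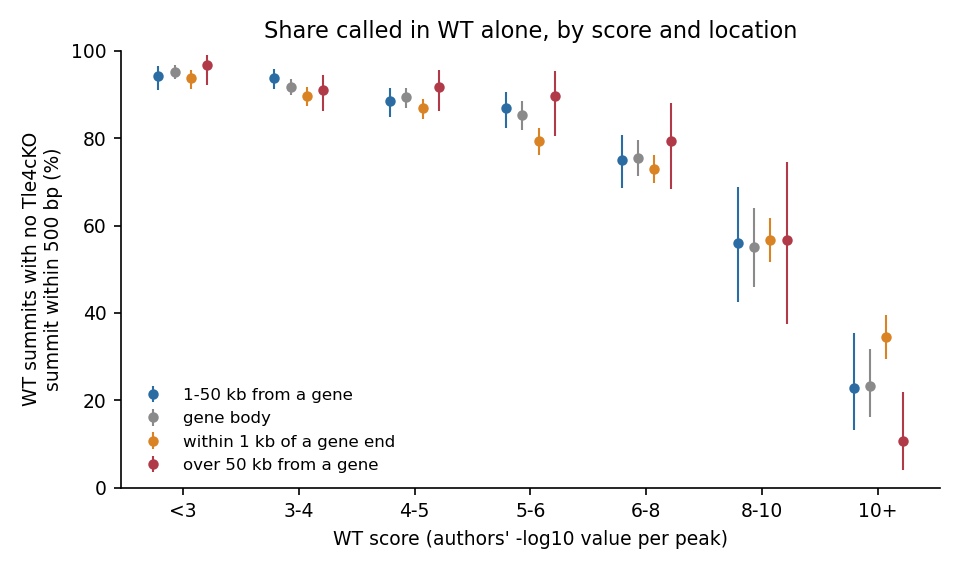
Share of WT summits with no Tle4cKO summit within 500 bp (vertical axis, percent) by WT score (horizontal axis, the authors' −log10 value per peak) for 4 locations, with bars for exact 95% intervals that cover counting error only. The share falls in all 4 locations, for summits 1 to 50 kb from a gene from 94.2% below a score of 3 to 23.0% at 10 or more.

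Members were denser within 20 kb of genes than farther out. Their median distance to the nearest gene end was 13181.5 bp, with a range from 1021 to 49765 bp. Per Mb of intergenic sequence at that distance there were 2.71 members from 1 to 5 kb, 2.88 from 5 to 10 kb, 2.77 from 10 to 20 kb, 2.42 from 20 to 30 kb, 1.98 from 30 to 40 kb and 1.87 from 40 to 50 kb. Intergenic WT-only summits within 1 kb of a gene end, which are not members, numbered 21.5 per Mb, and those from 50 to 100 kb numbered 1.44 per Mb. The density of members was thus nearly level up to 20 kb and lower beyond. For 753 members both flanking genes lay within 50 kb, so for these the choice of the nearest gene is least firm. Near ties among genes named below include Pparg (39124 bp, and 39129 bp from Syn2) and Tgif1 (11279 bp, and 11513 bp from Dlgap1). Others are H2-Eb2 (6556 bp, and 6823 bp from Btnl2) and an Ifnar1 member (29244 bp, and 29954 bp from Il10rb).

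**Figure D2:**
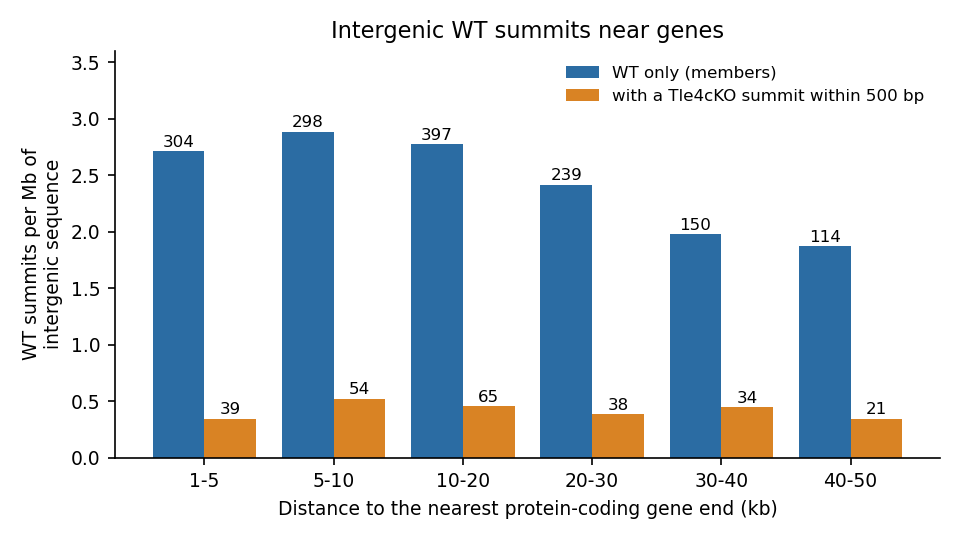
WT summits per Mb of intergenic sequence (vertical axis) by distance to the nearest protein-coding gene end in kb (horizontal axis), for members in blue and for WT summits with a Tle4cKO partner in orange, with the number of summits above each bar. Members stand at 2.71 to 2.88 per Mb up to 20 kb and decline to 1.87 per Mb at 40 to 50 kb.

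More members lay upstream of their nearest gene than downstream. The strand was given in the tables for the nearest gene of 1202 members, of which 702 (58.4%, 55.6 to 61.2%) lay upstream. Corrected for the sequence available, this was 2.77 members per Mb upstream and 2.33 downstream. Within 10 kb the densities were 2.93 and 2.71. Summits with a partner had 0.438 per Mb upstream and 0.410 downstream, and within 10 kb 0.374 and 0.460.

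The distance from members to the nearest Tle4cKO summit varied widely. The nearest Tle4cKO summit was a median of 159934 bp away, 20 members (1.33%) had one within 1 kb, 47 within 5 kb and 390 (26.0%) within 50 kb. For 907 members (60.4%) none lay within 100 kb. The Tle4cKO list held only 2341 summits on these chromosomes, and distances from other places in the genome were not computed. These distances, and those given for single genes, therefore have no background here. By chromosome, the share called in WT alone ran from 78.2% on chromosome 8 to 91.1% on chromosome 11 among the autosomes. On the X chromosome it was 56.5% (13 of 23, 34.5 to 76.8%). The X chromosome had 1.35 members per 100 genes, against 5.02 to 10.4 on the autosomes.

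Some members lay in or near non-coding genes. How much of the intergenic sequence such genes cover was not computed. Of the members, 297 (19.8%) lay inside a gene for a long non-coding RNA and 97 (6.46%, 5.27 to 7.82%) within 1 kb of a non-coding start. For summits with a partner these were 45 of 251 (17.9%) and 25 (9.96%, 6.55 to 14.4%). The nearest coding gene was a model named only Gm, LOC or Rik for 68 members (4.53%, 3.53 to 5.70%) and for 34 summits with a partner (13.5%, 9.57 to 18.4%). The intervals of these last shares do not overlap, and the difference itself was not tested.

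The members were nearest to 1218 of 21631 protein-coding genes, or 5.63%. Most of these genes had 1 member (1002 genes), while 167 had 2, 34 had 3, 12 had 4, 2 had 5 and 1 had 6. Summits at their gene ends, counted within 1 kb of either outer end whatever the strand, were not part of the rule. A WT gene-end summit was found at 384 of the 1218 (31.5%, 28.9 to 34.2%), against 22.9% of all protein-coding genes and 26.8% (21.3 to 33.0%) of the 235 genes nearest to a summit with a partner. A Tle4cKO gene-end summit was found at 91 (7.47%, 6.06 to 9.09%), against 6.26% of all genes. The WT interval for genes next to members lies above the WT share of all genes, and the Tle4cKO interval includes the Tle4cKO share. This does not show that the libraries differ, since the Tle4cKO count is small and the difference was not tested. Genes with more intergenic sequence around them can be nearest to a member more easily, and the part of this was not tested. For 819 of them (67.2%) neither library had a gene-end summit.

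**Figure D3:**
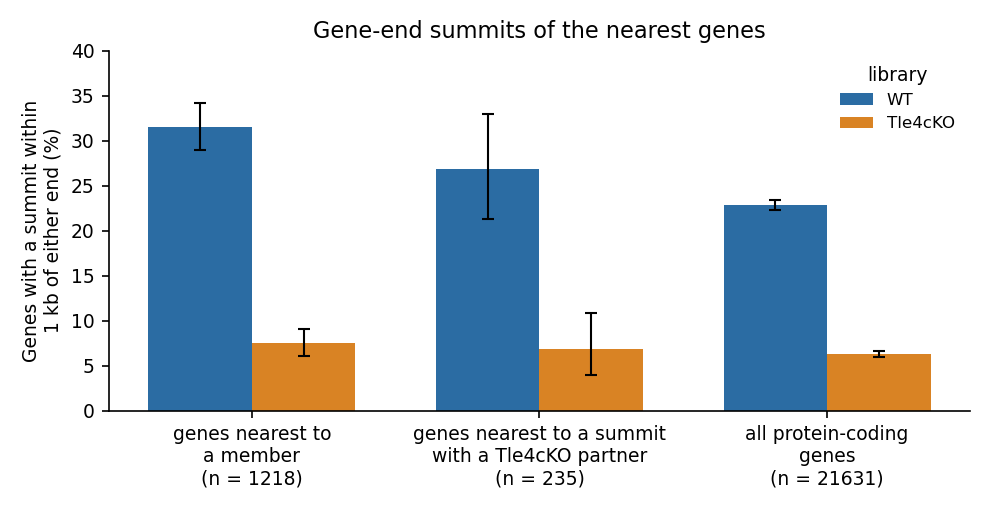
Percent of genes with a summit within 1 kb of either end (vertical axis), in WT in blue and Tle4cKO in orange, for genes nearest to a member, genes nearest to a summit with a Tle4cKO partner and all protein-coding genes, with exact 95% intervals. The WT bar is at 31.5% for genes nearest to a member and at 22.9% for all genes, while the Tle4cKO bars are at 7.47% and 6.26%.

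Among nearest genes with a WT gene-end summit, 76 of 384 (19.8%, 15.9 to 24.1%) also had one in Tle4cKO, against 24.7% of all such genes. The reverse view starts from the 1753 intergenic WT summits near genes. Where the nearest gene had gene-end summits in both libraries, 89 of 103 (86.4%, 78.2 to 92.4%) were called in WT alone. Where the gene-end summit was in WT alone the share was 87.9% (84.6 to 90.8%), and where neither library had one it was 84.7% (82.5 to 86.7%). Where it was in Tle4cKO alone, 21 of 24 (87.5%, 67.6 to 97.3%) were. The rule used this contrast, and the differences between these shares were not tested. Genes with 3 or more members had a WT gene-end summit in 20 of 49 cases (40.8%, 26.997 to 55.8%), and genes with 1 member in 31.2% (28.4 to 34.2%).

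The 20 members with the highest scores lay beside genes of many functions. After Chd2, a chromatin remodeller, came Gclc, the catalytic subunit of the enzyme that starts glutathione synthesis, with a score of 12.3 at 4041 bp from the gene. Ccnl1, a cyclin linked to splicing, followed with 12.1 at 12722 bp upstream. Capn2, a calcium-dependent protease, had 11.7, and Arhgap5, a GTPase-activating protein, had 11.6. The Arhgap5 member lay 543 bp from a non-coding transcript start. The lipid transfer protein gene Stard10 and the retinol dehydrogenase gene Dhrs9 each had 11.3.

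Next in rank were Ptp4a2 at 11.1 and Cdk9, the kinase that releases paused RNA polymerase, at 11.03. The Cdk9 member lay 2459 bp upstream of that gene and 5794 bp from Sh2d3c on the other side. Wdr5, a core subunit of histone methyltransferase complexes, had 10.7 at 3615 bp downstream. Rab11fip4, an effector of a recycling endosome GTPase, had 10.2, and the transcription factor gene Mef2d had 10.0 in the 1700113A16Rik window printed above. The Wdr5 and Rab11fip4 members lay 276 and 289 bp from a non-coding transcript start. The proto-oncogene Myc had 9.99 at 12419 bp from the gene, and its nearest Tle4cKO summit lay 975918 bp away.

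The rest of the 20 highest were Gm40363 (10.1), Sfi1 (10.1), Ankrd66 (9.98), Atp6v0c (9.87), Tbc1d9 (9.85), Pik3c2a (9.69) and Bin1 (9.66). Atp6v0c encodes the ring subunit of the proton pump that acidifies lysosomes, and its member lay 2603 bp upstream. The Ankrd66 member also lay 10063 bp from Pla2g7, which encodes a macrophage phospholipase. The members at Gm40363 and Sfi1 had Tle4cKO summits at 813 and 3286 bp, so both stand in regions that were called in both libraries.

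Several loci had a group of members along their flanks. Ptp4a2, a prenylated phosphatase linked to cell growth, had 6. The 3 upstream ones scored 11.1, 3.17 and 2.25 at 28497, 22224 and 17190 bp, and the 3 downstream ones scored 4.80, 4.13 and 4.27 at 4985, 27535 and 33261 bp. Its WT gene-end summit scored 2.59, below 5 of the 6 members. The only Tle4cKO summit within 50 kb lay 801 bp from the farthest downstream member, beside another WT summit.

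Cd83, an activation marker of antigen-presenting cells that stabilises MHC class II at the surface, had 5 members on one side, with scores of 4.96, 5.49, 2.80, 2.40 and 4.23 at 6847, 7770, 17389, 19433 and 32579 bp. No library had a gene-end summit at Cd83, and the nearest Tle4cKO summit to any of them was 1021617 bp away. The 4 closest formed a run over 12587 bp, a run being a row of members with short gaps between them. All WT summits within 50 kb of Cd83 were members.

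Il1b, the gene of the inflammatory cytokine interleukin-1 beta, had 5 members on both sides. The downstream ones scored 5.04 and 3.86 at 3844 and 26259 bp, and the upstream ones 3.21, 2.74 and 2.98 at 2395, 16680 and 43048 bp. The one at 2395 bp lay inside the antisense non-coding gene Il1bos. The member at 26259 bp lay 28124 bp from Il1a, and the one at 43048 bp lay 43585 bp from F830045P16Rik. Both are near ties. Neither library had a gene-end summit at Il1b, and the Tle4cKO list had none in the gene or within 50 kb of it. The Tle4cKO summit nearest to any of the 5 lay 15648 bp from the farthest upstream one.

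Tnfaip3, which encodes the ubiquitin-editing enzyme A20 that restrains NF-kB, had 3 members, all upstream, with scores of 4.06, 7.11 and 9.02 at 18245, 38422 and 46992 bp. The highest was the farthest from the gene and lay 377 bp from a non-coding transcript start. No gene-end summit was called in either library, and the nearest Tle4cKO summit was 529578 bp away. The next gene on that side, Olig3, was 294137 bp from the same member.

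**Figure D4:**
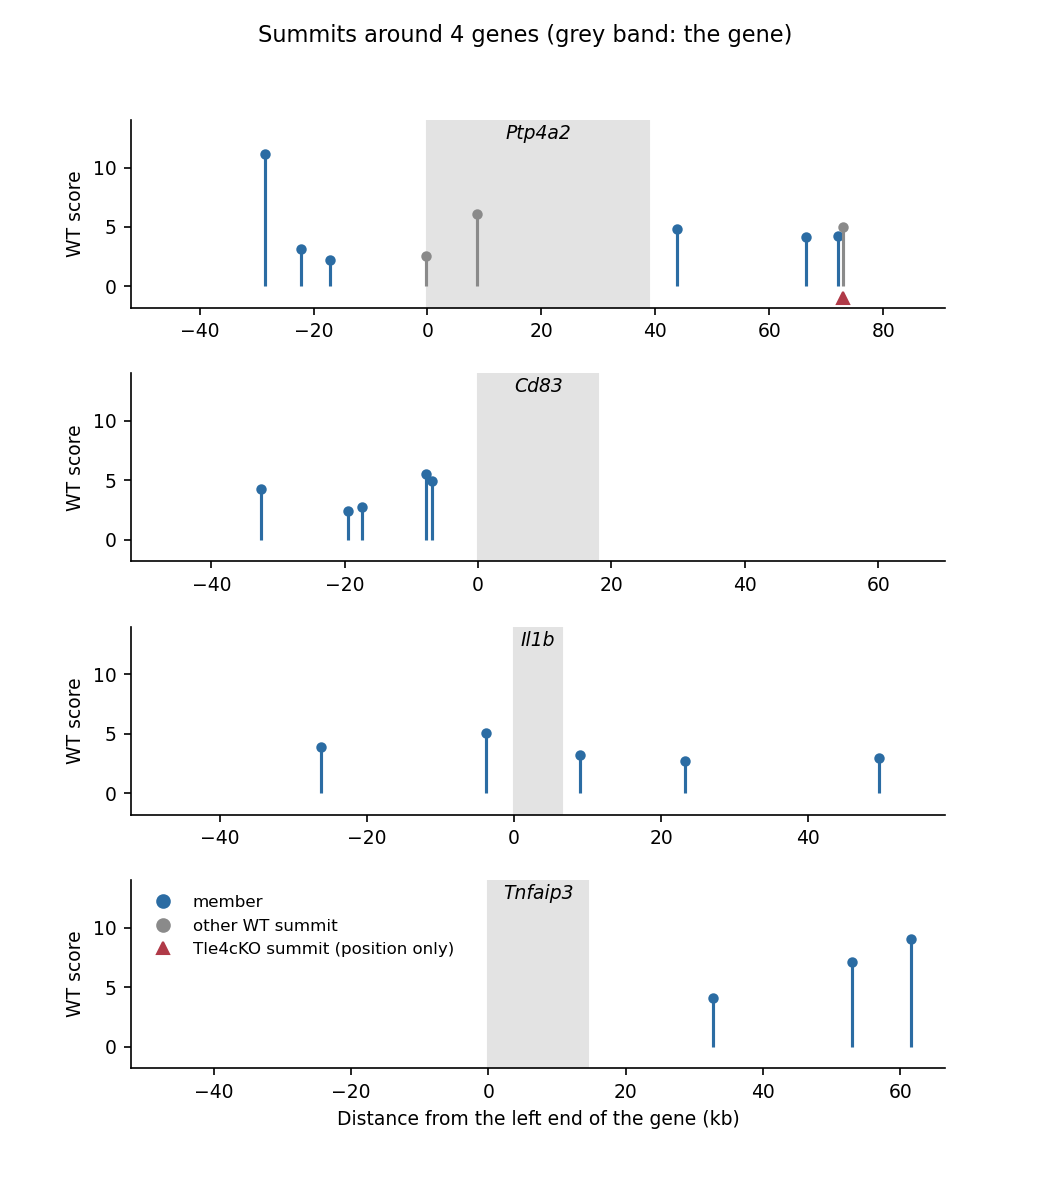
WT scores (vertical axis, the authors' −log10 value per peak) of summits around Ptp4a2, Cd83, Il1b and Tnfaip3, by distance in kb from the left end of the gene (horizontal axis, in the direction of the reference chromosome); members are blue, other WT summits grey, Tle4cKO summits red triangles without a score, and the gene a grey band. At Cd83, Il1b and Tnfaip3 the members are the only summits drawn, while Ptp4a2 also has 3 other WT summits and 1 Tle4cKO summit.

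The other genes with 4 members were Tbc1d8, Lpar1, Rap2b, Irf2bp2, Klhl25, Bmf and Fem1c, beside others with lower top scores. The Tbc1d8 members, from 3.07 to 6.56, formed a run upstream of that Rab GTPase regulator. Lpar1, a receptor for lysophosphatidic acid, had a run from 2.67 to 6.11 upstream and a gene end called in both libraries, with scores of 4.80 in WT and 3.27 in Tle4cKO. Rap2b, a small GTPase, had members up to 5.74 and a WT gene-end summit of 7.18. Irf2bp2, a corepressor that acts with an interferon regulatory factor, had members up to 5.62 and a WT gene-end summit of 5.97. Bmf, which promotes apoptosis, had members up to 5.37 and no gene-end summit. Klhl25 and Fem1c, substrate adaptors of ubiquitin ligases, had members up to 5.44 and 5.36 and WT gene-end summits of 4.18 and 7.68.

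In all there were 5 runs of 4 members, 18 of 3 and 108 of 2, and 1212 members stood alone. The other runs of 4 lay at Sp3, with scores from 2.15 to 4.98, and between Gm40363 and Pdia4, with scores from 3.63 to 10.1. The run at Gm40363 lay among 11 clustered WT summits, and a Tle4cKO summit was 679 bp from one of its members. The share of members with another WT summit within the same gap was 32.2% (29.8 to 34.6%), and for summits with a partner it was 33.5% (27.7 to 39.7%).

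The 27 gene lists were then read against the 5.63% of all genes that were nearest to a member and against 2.53 members per Mb of eligible intergenic sequence for all genes. The second measure matters because list genes often had more eligible sequence around them. The median was 35.1 kb for AP-1 and immediate early genes and 16.6 kb for all genes. Of the lists, 20 had a member and 7 had none. With little eligible sequence, 1 member is enough to put a list above 2.53 per Mb. In all 20 lists with a member, the 95% interval of the share of near-gene WT summits called in WT alone held the overall 85.7%. These intervals are wide. Beside the counts of Tle4cKO summits that follow, 23.2% of all protein-coding genes and 30.9% of the genes nearest to a member had a Tle4cKO summit in the gene or within 50 kb.

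**Figure D5:**
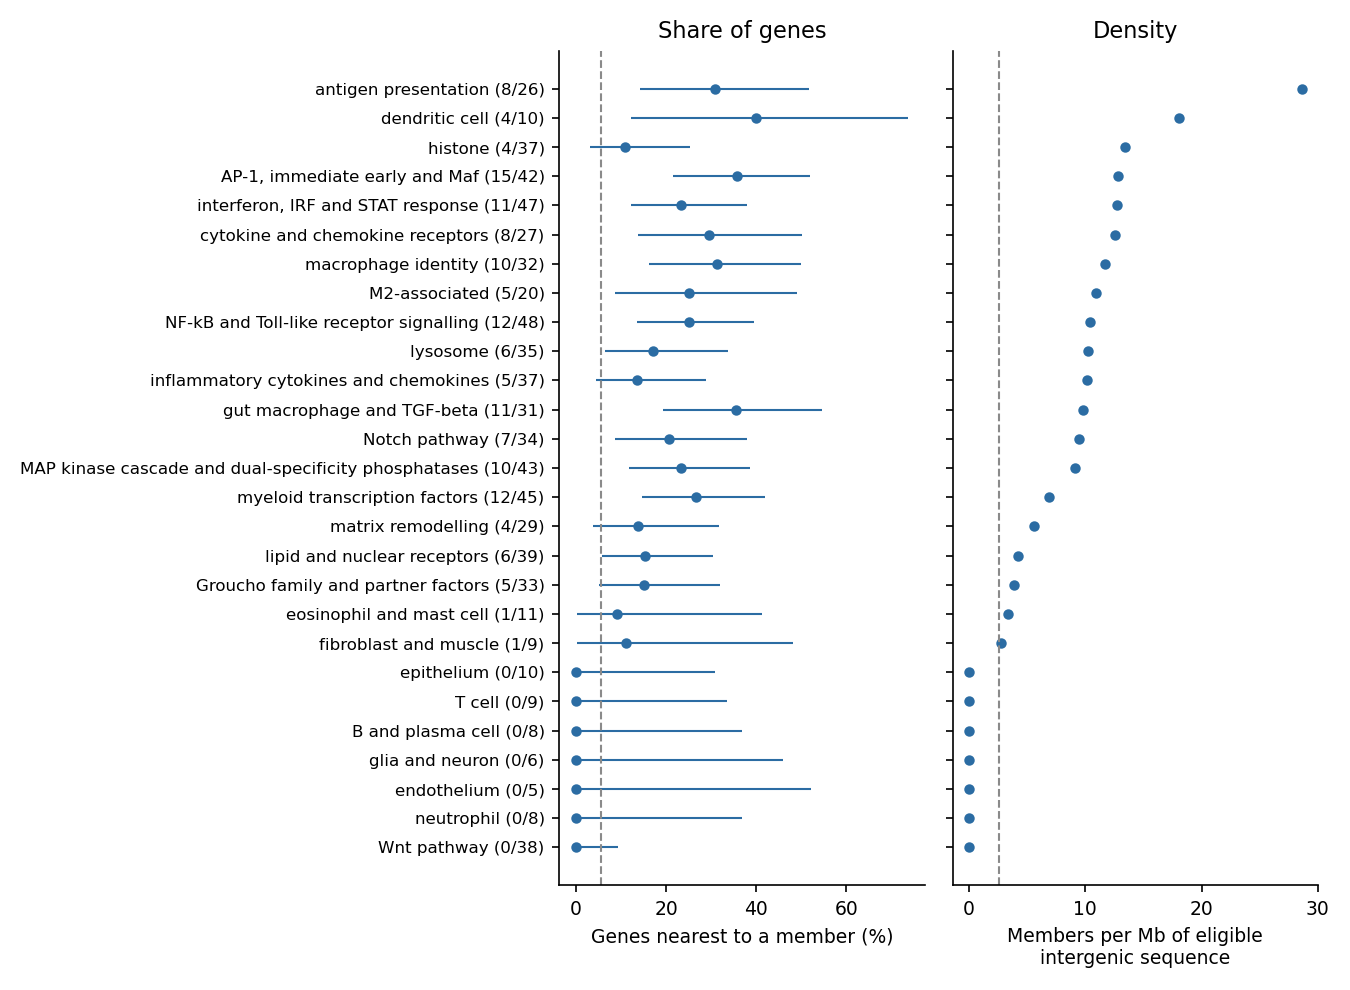
Left, percent of each list's genes that were nearest to a member, with exact 95% intervals and the number of genes in parentheses; right, members per Mb of eligible intergenic sequence (1 to 50 kb from the genes). Dashed lines are the values for all protein-coding genes, 5.63% and 2.53 per Mb; antigen presentation lies farthest right at 28.6 per Mb and 7 lists, among them the Wnt pathway, lie at 0.

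AP-1, immediate early and Maf genes, which encode or accompany the transcription factors first induced by stimulation, had members next to 15 of 42 (35.7%, 12.8 per Mb). Of the near-gene WT summits beside them, 22 were members and 3 had a partner. Myc led the list, followed by Fos with 7.16 and 3.02 at 18668 and 36363 bp upstream. Ier5 had 6.17 and 3.48, Nr4a3, an orphan nuclear receptor gene, 5.81, and the remaining genes included Klf6, Dusp2, Nfe2l2, Atf3, Batf, Bach1, Batf3, Dusp1, Junb, Jun and Maff. Of these 15 genes, 6 had a WT gene-end summit and 0 had a Tle4cKO one. The shares were 22.9% and 6.26% over all genes, and 31.5% and 7.47% over genes nearest to a member. So few genes cannot set 0 apart from 6.26% or 7.47%. A Tle4cKO summit lay in the gene or within 50 kb for 6 of the 15, but the one nearest to a Fos member was 250302 bp away.

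Genes of NF-kB and Toll-like receptor signalling had members next to 12 of 48 (25%, 10.4 per Mb), with 15 members and 5 summits with a partner. A Tle4cKO summit lay in the gene or within 50 kb for 4 of the 12. Tnfaip3 led. Tlr1, a receptor for bacterial lipopeptides, had 7.29 at 5809 bp downstream, with a Tle4cKO summit 4400 bp away. Rel, an NF-kB subunit, had 7.16 and 6.75 at 39782 and 8046 bp upstream and a WT gene-end summit of 3.53. Tlr3, the receptor for double-stranded RNA, had 5.85 at 4107 bp upstream and its nearest Tle4cKO summit lay 1271944 bp away.

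Inflammatory cytokines and chemokines had members next to 5 of 37 genes, but 12 members in all (10.1 per Mb) and 0 summits with a partner. Besides Il1b, the chemokine gene Ccl3 had 3, with scores of 5.16, 4.16 and 4.94 at 7342, 8749 and 16921 bp downstream. Osm, the gene of oncostatin M, had 3.92, and Il12b, a subunit of interleukin-12 and interleukin-23, had 3.78 and 2.22 at 17790 and 45022 bp upstream. Of the 5 genes, which include Il1rn, 0 had a Tle4cKO summit within 50 kb, a count that few genes cannot set apart from 30.9%. Cytokine and chemokine receptors had members next to 8 of 27 genes (12.53 per Mb). Ifngr1 had 5.95, 5.61 and 3.32 at 21322, 22223 and 45184 bp upstream, and its gene-end summit scored 4.72 in WT and 2.84 in Tle4cKO. Csf2ra, a chain of the GM-CSF receptor, had 5.82 and 4.46 beside gene-end summits of 7.51 and 5.24. Ccr1 had 5.21, 725 bp from a Tle4cKO summit, and Ifnar1, a chain of the type I interferon receptor, had 4.23 and 2.22.

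Macrophage identity genes had members next to 10 of 32 (11.7 per Mb), 13 in number with 1 summit with a partner. Sirpa, an inhibitory receptor that binds CD47, had 5.62 at 4683 bp. Fcgr1, the gene of CD64, had 4.99 at 7232 bp upstream and a WT gene-end summit of 5.49. Itgam, the gene of CD11b, had 4.94 at 13532 bp upstream. Of the 15 marker genes of the labelled cell type, Adgre1, Fcgr1, Mertk and Itgam were nearest to a member. The list of myeloid transcription factors had 12 of 45 (6.88 per Mb). Besides Mef2d it named Runx1, with 5.37 at 38529 bp upstream and 4.54 at 28683 bp downstream, Zeb1, with 5.37, and Runx3, with 4.34.

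Gut macrophage and TGF-beta genes had members next to 11 of 31 (9.82 per Mb). Both chains of the TGF-beta receptor were among them with gene ends called in both libraries. Tgfbr2 had 5.66 at 3297 bp downstream and 3.21 at 18648 bp upstream, and its gene end scored 6.52 in WT and 2.59 in Tle4cKO. Tgfbr1 had 5.59 at 19568 bp upstream, beside 2.28 and 1.79. Tgif1, a repressor of this pathway, had 5.76 and Smad7, its feedback inhibitor, had 4.97 and 3.84, and both had a WT gene-end summit alone.

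Antigen presentation genes had the highest density of the lists, 28.6 members per Mb, with members next to 8 of 26 genes and 0 summits with a partner. A Tle4cKO summit lay in the gene or within 50 kb for 4 of the 8. The list had a median of 11.1 kb of eligible sequence per gene. H2-Eb2 had 7.43 at 6556 bp downstream and H2-Oa 7.23 at 6552 bp downstream. H2-Aa, the alpha chain of a classical MHC class II molecule, had 5.86 at 1786 bp downstream and a WT gene-end summit of 3.04. H2-Ab1, its beta chain, had 5.74 at 1598 bp and no gene-end summit. The same Tle4cKO summit was the nearest to the members at H2-Aa, H2-Ab1 and H2-Eb2, at 24037, 43366 and 42971 bp. The count of genes with a Tle4cKO summit within 50 kb thus holds this summit more than once.

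Interferon, IRF and STAT response genes had members next to 11 of 47 (12.7 per Mb), with 13 members and 3 summits with a partner. Socs3, a feedback inhibitor of JAK-STAT signalling, had 6.56 and 4.50 at 24253 and 19016 bp downstream. Jak2 had 5.64, Ifi204 had 4.71 and Irf1 had 4.53 at 6135 bp upstream, where Mir7671 lies 225 bp from the member. Lysosome genes had 6 of 35 (10.2 per Mb), among them Psap, the saposin precursor gene, with 5.68 and 5.59; the protease genes Ctsc and Ctss had 4.63 and 4.55. Lipid and nuclear receptor genes had 6 of 39 (4.17 per Mb), with Mylip at 4.86, Fabp4 at 3.81 and Nr3c1 at 3.33. M2-associated genes had 5 of 20 (10.9 per Mb). Among them Pdcd1lg2, the gene of the checkpoint ligand PD-L2, had 4.86 and 4.83, Arg1, the gene of arginase 1, had 3.67, and Pparg had 2.89 at a gene whose ends scored 9.41 in WT and 6.88 in Tle4cKO.

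The next lists cover the known partners of Groucho proteins and the pathways they act in. Groucho family and partner genes had 5 of 33 (3.89 per Mb): Myc, Hhex with 6.21, Runx1, Hes1 with 4.38 and Runx3. Notch pathway genes had 7 of 34 (9.45 per Mb), led by the ligand gene Jag2 with 5.15 and 3.29, with Adam10 at 4.21 and Lfng at 3.797. No gene of the 38 on the Wnt pathway list was nearest to a member. The interval, 0 to 9.25%, includes the 5.63% of all genes, so this count cannot be set apart from it. A WT summit lay within 10 kb of 15 of the 38, beside 39.6% of all genes. Wnt10a and Wnt11, which are not on that list, were nearest to members. Their scores were 3.68 for Wnt10a and 5.36 and 3.30 for Wnt11. The MAP kinase list had 10 of 43 (9.09 per Mb), with Dusp2 at 5.58, Map3k14 at 5.56, Mapkapk2 at 5.20 and 2.43 and Map3k7 at 4.88. Of these 10 genes, 0 had a Tle4cKO summit in the gene or within 50 kb, beside 30.9% of all genes nearest to a member. The genes are few, many lists were read and the difference was not tested. The whole MAP kinase list did have Tle4cKO summits. They lay in the gene or within 10 kb for 7 of the 43 genes and at a gene end for 6, beside 11.8% and 6.26% of all genes. Matrix remodelling genes had 4 of 29 (5.55 per Mb): Timp2 with 7.71, Mmp19 with 5.59, Plau with 4.38 and Adam10. Histone genes had 4 of 37 (13.4 per Mb), with H3f3a at 4.76, H2bc15 at 4.04, H1f2 at 3.29 and H2az1 at 2.67.

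Lists of markers of other cell types hold few genes, so counts near the background of 5.63% cannot be told from 0. The counts nearest to a member were 0 of 10 epithelial, 0 of 8 B and plasma cell, 0 of 8 neutrophil, 0 of 9 T cell, 0 of 5 endothelial and 0 of 6 glial and neuronal genes. These counts cover only the genes on the lists. Ctla4 and Bank1, genes known from T and B cells but not on these lists, were nearest to members, with highest scores of 6.54 and 4.59. The single member of the fibroblast and muscle list (1 of 9) was nearest to Pdgfrb, with a score of 3.61 at 5814 bp, and lay 14691 bp from Csf1r, the macrophage growth factor receptor gene on its other side. The single member of the eosinophil and mast cell list (1 of 11) had 3.53 at 5396 bp downstream of Ccr3. Dendritic cell genes had 4 of 10 (18.05 per Mb), with Siglech at 5.94, Batf3 at 4.19 and 2.54, Xcr1 at 4.12 and Irf4 at 2.62 and 2.15. The ends of Xcr1 were called in both libraries, at 3.58 in WT and 4.06 in Tle4cKO. The part of dendritic cells in these members was not tested.

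The limits of the rule cut through continuous distances. Just inside the 500 bp limit were members near Slc2a3, Galnt12 and Psmb8, with a Tle4cKO summit at 526, 558 and 570 bp and scores of 5.04, 4.55 and 4.62. Just outside were summits near Gm17434, Hpcal1 and Irgm1 at 498, 492 and 464 bp, with 3.49, 3.53 and 5.35. At the 1 kb limit, members near Tex2, Hnrnpa3 and Letmd1 lay at 1021, 1026 and 1027 bp with 6.80, 3.95 and 5.56. Those left out near Pbx3, Slc11a1 and Spef1l lay at 999, 995 and 988 bp with 2.91, 5.83 and 1.84. At the 50 kb limit, members near Hk2, Rbbp6 and Man1a2 lay at 49765, 49687 and 49328 bp with 6.67, 2.79 and 2.97. Those left out near Pip4k2a, D16Ertd472e and Dkk2 lay at 50005, 50052 and 50063 bp with 5.65, 4.12 and 2.85.

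In the opposite direction, the Tle4cKO list had 342 summits in the same location, 14.6% of its 2341, and 245 of them (71.6%, 66.5 to 76.4%) had a WT summit within 500 bp. Near-gene intergenic summits made up 16.8% of the WT list.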

How the data were processed

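H3K27ac CUT&Tag libraries of WT and Tle4cKO colonic macrophages were compared, 1 pooled library of 4 mice per genotype. The authors deposited 1 list of summits per library, each a 1 bp position with a score. Positions are on mm10, and cutadapt 1.14 and Bowtie2 2.2.5 were used, per the submitters' processing notes. The peak caller, settings and control were not given in the sources used here. Scores that the authors deposited were taken to be −log10 of a p- or q-value, since the smallest are a little over 1.30, which corresponds to 0.05; the sources do not say which. Depth is unknown and raises such scores, so they rank summits only within a list. Where WT and Tle4cKO scores of a gene end are printed side by side, they do not measure a difference between the genotypes.

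Genes were the 21631 protein-coding genes of RefSeq on GRCm38.p6, by outer start and end. Strand and sequence came from the RefSeq start windows (300 bases), which cover only some genes, and mature microRNAs from the RefSeq table within 5 kb of a member. Eligible sequence is the intergenic sequence over 1 kb and at most 50 kb from the nearest gene end. Runs join members at most 12.5 kb apart. Shares carry 95% intervals by the exact Clopper-Pearson method, which cover only counting error and treat neighbouring genes or summits as independent. No test between genotypes was possible and no p-value is given. Python 3.11.15, numpy 2.4.6, pandas 2.3.3, scipy 1.17.1 and matplotlib 3.10.9 were used, and the classification was tested on simulated data.

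The members, the 27 gene lists (664 genes, some in more than 1 list) and the rule for named genes were chosen with earlier results of these data known. The rule takes the 20 members with the highest score, the 10 genes nearest to most members, up to 4 genes per list by score, the Tle family and Lyz2, the 5 longest runs and the 3 summits on each side of each limit. Sequences were limited to start windows and were picked after their values were seen. So were Olig3, Csf1r, Sh2d3c, Pla2g7, Wdr81, Wnt10a, Wnt11, Ctla4, Bank1, Rpusd4, Mrgprd, Tmem196 and the microRNAs. The near ties with a second gene were also picked after their values were seen. Remaining list genes are named without values, and some are not reported here. Alternatives were other distances, a score minimum of 5, merged summits, genes of every type, autosomes only and the removal of runs of 3 or more WT summits.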

Additional observations from a re-analysis of the deposited data

How the results depend on the processing

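Each of the 4 counts and shares was recomputed under 12 alternatives. The number of members was within 1.5 times 1502 under 11 of them, and the number of nearest genes within 1.5 times 1218 under 11. With a WT score of at least 5 there were 449 members next to 419 genes, 73.5% of near-gene intergenic WT summits were called in WT alone, and the median member score was 5.84. That share was 88.2% with a partner distance of 250 bp and 83.0% with 5000 bp. The share of members whose nearest gene had a WT gene-end summit, 32.2% as reported, was 36.6% with a least gene distance of 500 bp, where summits near the gene-end window enter, and 19.2% when genes of every type counted, which replaces coding by non-coding nearest genes. All other values of these 4 results moved by less than their interval or by less than 1.5 times. The planned motif search in windows around members was not run, because no genome sequence was used here. No paired analysis was possible because each genotype has 1 library. Unknown depth limits every statement on a summit that was not called.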
